A study of Mus musculus with 17 samples.

Results

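The genes described here are 10 writers, maintainers and erasers of the 2 best known silencing marks of the mouse genome: Dnmt1, Uhrf1, Dnmt3a and Dnmt3b for DNA methylation, Tet1, Tet2 and Tet3 for its removal, and Ezh2, Eed and Suz12 for Polycomb repression. They were taken by gene symbol. Each of the 10 had exactly 1 row among the 17140 genes of the early tumour and normal liver tables and the 18185 genes of the Kupffer cell table. Poly(A) RNA was sequenced from 17 mouse libraries in 5 groups, in a study that, by its title, asks how cancer precursors expressing the transcription factor MEF2D act on resident macrophages of the liver. The KO group (3 libraries) was early hepatocellular carcinoma (HCC) cells of genotype KO from mice induced with DEN, a label usually read as the carcinogen diethylnitrosamine. The WT group (3 libraries) was the same kind of cells of genotype WT, also DEN-induced. Normal liver cells (3 libraries) carried the genotype label Normal with no induction named, and the extraction protocol lists hepatocytes in their place. Kupffer cells, the macrophages that reside in the liver sinusoids, were labelled KC1 (4 libraries) and KC2 (4 libraries), and all 8 came from DEN-induced mice. The labels used here give no strain, age, sex, time after induction, Cre driver or clone, and they do not spell out the abbreviation PME attached to the Kupffer cells.

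DNA methylation in mammals sits on the cytosine of CpG dinucleotides. UHRF1 binds hemimethylated DNA behind the replication fork and brings in DNMT1, which copies the mark to the new strand, whereas DNMT3A and DNMT3B place methyl groups on unmethylated sites. TET enzymes oxidise the methyl group and so start its loss. Polycomb repressive complex PRC2 methylates lysine 27 of histone H3: EZH2 is its catalytic subunit, EED binds the finished mark and stimulates the enzyme, and SUZ12 holds the complex together. Dnmt1, Uhrf1 and Ezh2 are genes of dividing cells and targets of E2F factors. In adult mouse liver hepatocytes rarely divide, but the libraries labelled normal liver cells held transcripts of cell division, as given below.

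Promoter windows of all 10 genes, each running from 250 bases before an annotated start to 50 bases after it, were read from the RefSeq table of build GRCm38.p6 and gave 15 windows. They were searched on both strands for 4 E2F words (TTTCCCGC, TTTGGCGC, TTTCGCGC and TTTGCCGC), which 2.26% of all 32851 windows hold. A word was present in 1 window each of Dnmt1, Uhrf1, Ezh2 and Suz12, the only members with a match, and these 4 windows are shown because 2 of the genes were higher and 2 lower in WT early HCC cells than in normal liver cells. Capitals mark the E2F words. The Dnmt1 window lies at chr9:20952574-20952873 (minus strand) and holds 2 of the words, the Uhrf1 window at chr17:56304063-56304362 (plus strand), the Ezh2 window at chr6:47594981-47595280 (minus strand) and the Suz12 window at chr11:79992856-79993155 (plus strand).
Dnmt1: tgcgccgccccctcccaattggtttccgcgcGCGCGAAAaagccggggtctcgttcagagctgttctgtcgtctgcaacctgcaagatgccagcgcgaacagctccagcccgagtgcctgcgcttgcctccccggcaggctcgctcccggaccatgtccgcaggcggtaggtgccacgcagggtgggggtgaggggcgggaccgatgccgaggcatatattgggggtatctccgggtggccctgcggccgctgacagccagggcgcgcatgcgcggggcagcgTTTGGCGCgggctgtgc
Uhrf1: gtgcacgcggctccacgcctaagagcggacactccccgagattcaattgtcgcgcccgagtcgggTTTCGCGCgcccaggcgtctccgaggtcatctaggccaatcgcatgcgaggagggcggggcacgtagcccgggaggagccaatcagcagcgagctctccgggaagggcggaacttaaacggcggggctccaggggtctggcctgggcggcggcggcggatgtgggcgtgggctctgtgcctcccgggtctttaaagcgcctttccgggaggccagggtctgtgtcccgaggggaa
Ezh2: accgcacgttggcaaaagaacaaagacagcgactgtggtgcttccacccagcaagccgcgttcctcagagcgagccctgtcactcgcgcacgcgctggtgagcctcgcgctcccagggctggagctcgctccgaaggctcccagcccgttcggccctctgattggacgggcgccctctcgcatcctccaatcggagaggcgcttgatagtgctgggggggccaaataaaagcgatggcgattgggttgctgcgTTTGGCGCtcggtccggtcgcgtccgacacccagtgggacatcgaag
Suz12: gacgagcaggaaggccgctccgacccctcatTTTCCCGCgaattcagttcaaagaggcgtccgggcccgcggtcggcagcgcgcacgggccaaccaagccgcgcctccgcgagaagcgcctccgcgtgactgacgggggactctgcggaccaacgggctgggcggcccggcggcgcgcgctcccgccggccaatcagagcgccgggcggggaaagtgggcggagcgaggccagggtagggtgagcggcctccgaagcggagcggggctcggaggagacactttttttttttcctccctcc
CpG dinucleotides, the substrate of the enzymes themselves, numbered 33 in the Dnmt1 window, 33 in the Uhrf1 window, 31 in the Ezh2 window and 41 in the Suz12 window, against a median of 7 over all windows. Each of the E2F words holds a CpG itself, so windows shown for holding a word are not a neutral choice. For the same reason the share of all windows with a word is no matched background for CpG-rich windows. Enrichment of the words among members was not tested. Member windows ranged from 2 in another Dnmt1 window to 57 in that of Tet2. The remaining Dnmt1 window and the other Uhrf1 window held 12 each. The consensus site of MEF2 factors was found in 0 of the 15 member windows and in 3.19% of all windows. A match is a stretch of letters in the window and shows no binding.

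Library totals ran from 16604606 to 18637765 expected counts in liver cells and from 15353249 to 16743459 in Kupffer cells. Levels are given as CPM (a gene's count as its share of the scaled library total, in the usual parts of that unit), with TMM scaling within the 9 liver cell libraries or within the 8 Kupffer cell libraries. Whether replicates were separate animals or cultures is not stated in the labels, and p-values therefore reflect only the variation among libraries, part of which can be technical. Fitted over all genes tested, the variation among libraries beyond counting error was small in liver cells. As a coefficient of variation it was 0.034 for KO against WT, 0.0371 for WT against normal and 0.0299 for KO against normal. For KC2 against KC1 it was 0.267. Low p-values in liver cells rest on that small spread and may not carry over to other animals or cultures. Mef2d itself stood at 69.0, 63.6 and 65.8 CPM in KO against 99.0, 97.3 and 104 CPM in WT, 1.52-fold lower in KO (log2 fold change -0.60 ± 0.04 SE, edgeR adjusted p = 7.17e-09). It was at 62.0, 51.8 and 57.1 CPM in normal liver cells, and KO was 1.16-fold higher than normal (adjusted p = 0.0014). Transcript was thus present in every library labelled KO, and the deleted part of the gene is not given. The worksheet that holds the KO and WT counts bears the name of another contrast, an sh against a ctrl condition, and its columns were assigned by their own headings. That name also holds the abbreviation AML and further codes that the labels do not explain. The origin of these counts therefore rests on the column headings. The labelled cell types were checked against marker genes. Alb, the main hepatocyte transcript, was at 2.40 ± 0.26 CPM (SD, n = 3) in normal liver cells and at 0.131 CPM or below on average in early HCC cells, while the bile duct keratin Krt19 was at 1080 ± 15.6 CPM (SD, n = 3) in normal liver cells. The 6 cholangiocyte markers did not share 1 direction: Krt19, Krt7 and Sox9 were higher in normal liver cells, whereas Epcam was at 0 CPM there against 36.3 in KO and 15.3 in WT, and Spp1 at 164 CPM against 1720 and 1330 CPM. Their sums were 1750 to 1820 CPM in KO, 1330 to 1420 CPM in WT and 1690 to 1720 CPM in normal liver cells. In the 7 hepatocyte markers with a row, the summed level was 118 to 128 CPM in normal liver cells, 119 of it on average from Hnf4a, and 0.701 to 2.68 CPM in early HCC cells. The 6 macrophage markers with a row summed to 3.14 to 20.8 CPM over all liver cell libraries, and the 9 endothelial ones to 2.60 to 3.82 CPM in early HCC and 71.2 to 75.1 CPM in normal liver cells. Ptprb alone made up 73.0 CPM of the latter on average, and Lyve1 and Bmp2 were at 0 there. Each of the 17140 genes in the liver cell tables was detected in early HCC cells, so genes detected in normal liver cells alone were not among those tested.

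In the liver cells, the maintenance pair and the main de novo enzyme followed 1 pattern: Dnmt1, Uhrf1 and Dnmt3a were highest in WT early HCC cells, and each was lower in KO cells by 1.43-fold to 1.96-fold. Dnmt1 was at 271, 277 and 278 CPM in KO, 439, 454 and 457 CPM in WT and 248, 250.5 and 247 CPM in normal liver cells. No group overlapped another, and KO lay close above normal. Relative to WT, Dnmt1 in KO had a log2 fold change of -0.71 ± 0.03 (SE, edgeR adjusted p = 4.46e-11), and relative to normal liver cells WT was higher by 0.87 ± 0.04 (adjusted p = 2.56e-13) and KO by 0.15 ± 0.03 (adjusted p = 1.3e-04).

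Uhrf1, whose protein directs DNMT1 to newly copied DNA, was at 202.5, 201.9 and 202.7 CPM in KO, 280, 289 and 295 CPM in WT and 156, 150.4 and 159.7 CPM in normal liver cells. Here too WT was above KO and KO above normal in every library. Uhrf1 was 1.43-fold lower in KO than in WT (log2 fold change -0.51 ± 0.03, edgeR adjusted p = 2.57e-09) and 1.86-fold higher in WT than in normal liver cells (adjusted p = 6.67e-13). Per kb of exon, Dnmt1 stood at 0.786 ± 0.011 times the level of Uhrf1 in KO, 0.904 ± 0.007 in WT and 0.925 ± 0.035 in normal liver cells (SD, n = 3 each).

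Dnmt3a, a de novo methyltransferase that stays active in many adult tissues, showed the widest KO difference of the tested members. Its level was 44.1, 45.1 and 44.1 CPM in KO, 83.3, 86.8 and 90.2 CPM in WT and 38.8, 36.6 and 39.5 CPM in normal liver cells. KO was 1.96-fold below WT (log2 fold change -0.97 ± 0.05, edgeR adjusted p = 4.33e-11), and WT was 2.28-fold above normal (1.19 ± 0.05, adjusted p = 4.26e-13). KO was 1.16-fold above normal (0.22 ± 0.05, adjusted p = 4.77e-04).

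Dnmt3b, the de novo enzyme of early embryos, was nearly silent in the early HCC cells. It had 0 counts in all 3 KO libraries, 3, 2 and 1 counts in the WT libraries, and 40, 43 and 57 counts in the normal liver libraries (2.21, 2.37 and 3.11 CPM). With the KO group set at 3 counts over its libraries, it was at least 44.9-fold lower in KO than in normal liver cells (edgeR adjusted p = 2.43e-09). WT was 21.1-fold lower than normal (log2 fold change -4.40 ± 0.39, adjusted p = 1.1e-08). Between KO and WT it was too low to be tested, and the 6 counts of WT against 0 in KO allow no fold of size. Floors and count intervals rest on counts summed over a group, so they describe counting error alone and leave out variation among libraries. No molecular identifiers were used, so copies of the same molecule cannot be told apart.

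**Figure D1:**
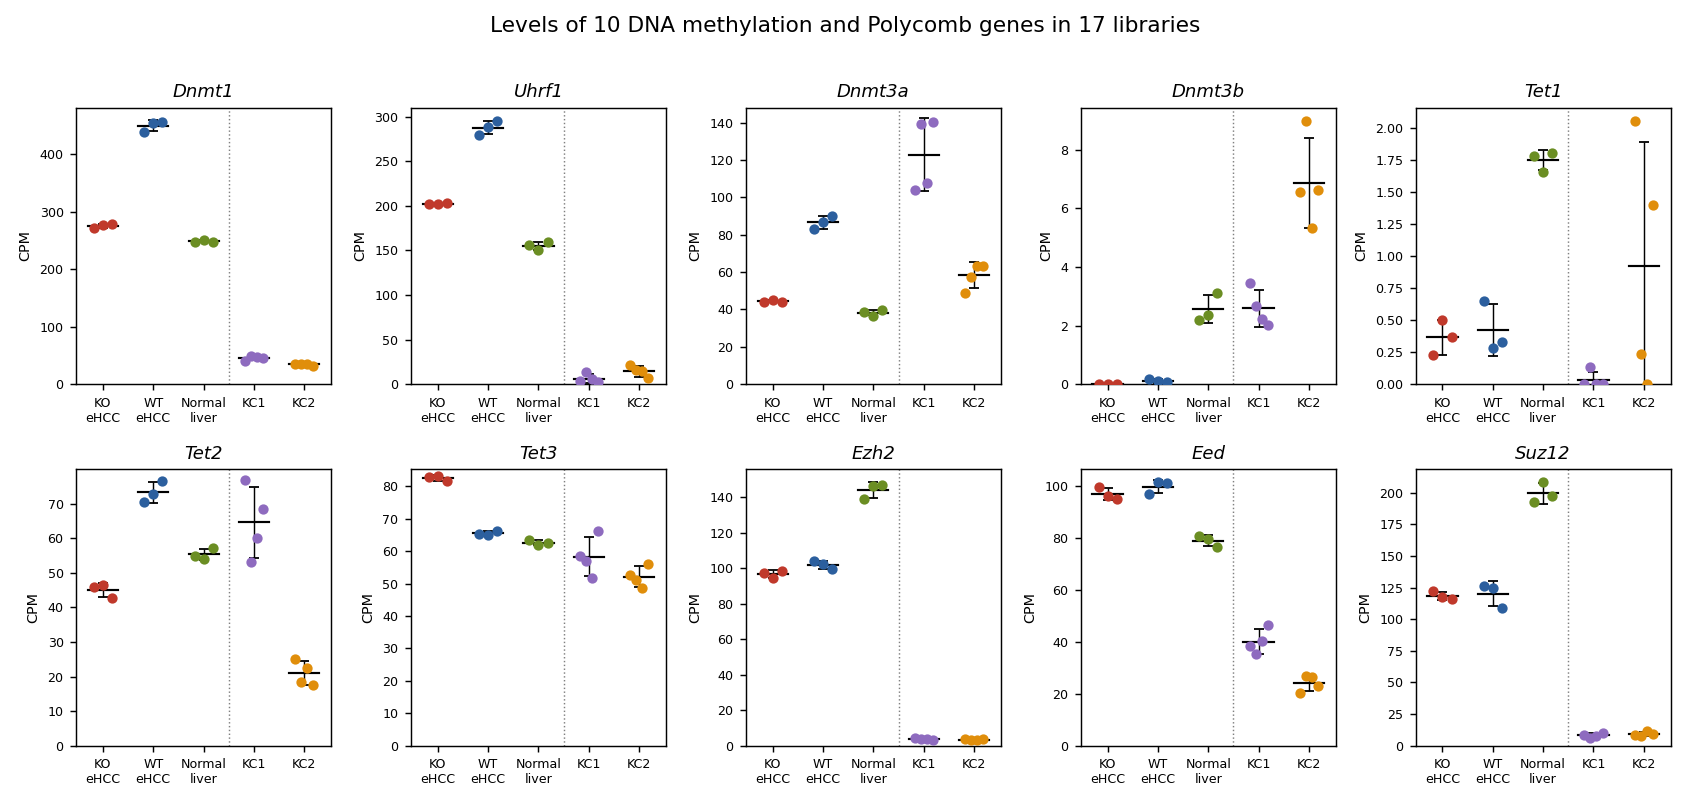
Level of each of the 10 genes in every library (CPM, linear axes from 0), with the group mean and SD. Points left of the dotted line are liver cells (3 libraries a group) and points right of it are Kupffer cells (4 libraries a group), scaled separately. WT libraries stand above KO and normal libraries for Dnmt1, Uhrf1, Dnmt3a and Tet2, normal liver libraries stand highest for Ezh2 and Suz12, and Ezh2 and Suz12 are at or under 11.7 CPM in all Kupffer cell libraries.

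Among the oxidases, Tet2 and Tet3 moved in opposite directions between KO and WT cells, and Tet1 was low throughout. Tet2 was at 46.0, 46.5 and 42.7 CPM in KO, 70.4, 72.9 and 76.4 CPM in WT, and 54.9, 53.8 and 57.2 CPM in normal liver cells. KO lay below normal and normal below WT with no overlap: the log2 fold change was -0.70 ± 0.05 for KO against WT (edgeR adjusted p = 4.93e-09), 0.41 ± 0.05 for WT against normal (adjusted p = 3.65e-07) and -0.29 ± 0.05 for KO against normal (adjusted p = 1.41e-05). Tet2 was thus the only one of the 4 members lower in KO than in WT that also lay below normal liver cells.

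Tet3, the TET enzyme of the oocyte and of many somatic tissues, was at 83.0, 83.2 and 81.5 CPM in KO, 65.4, 65.0 and 66.1 CPM in WT and 63.5, 61.8 and 62.6 CPM in normal liver cells. It was 1.26-fold higher in KO than in WT (log2 fold change 0.33 ± 0.04, edgeR adjusted p = 1.6e-06), while WT and normal differed by 0.07 ± 0.04 (adjusted p = 0.124). Per kb of exon, Tet2 stood at 1.11 ± 0.04 times Tet3 in WT, 0.874 ± 0.026 in normal liver cells and 0.540 ± 0.019 in KO (SD, n = 3 each). Tet1, best known from embryonic stem cells, had 3.98 to 11.04 counts in each early HCC library and 30.1 to 33.1 in each normal liver library. It was 4.09-fold lower in WT than in normal (log2 fold change -2.03 ± 0.32, edgeR adjusted p = 1.45e-05) and 4.50-fold lower in KO than in normal (adjusted p = 3.38e-06), and it fell under the filter between KO and WT.

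The PRC2 core behaved differently from the DNA methyltransferases: no subunit passed the test between KO and WT, and Ezh2 and Suz12 were lower in both early HCC groups than in normal liver cells. Ezh2 was at 97.1, 94.4 and 98.6 CPM in KO, 104, 102 and 99.5 CPM in WT and 139, 146 and 146.5 CPM in normal liver cells. KO lay just below WT without overlap, with a log2 fold change of -0.08 (95% interval -0.15 to -0.01) and an edgeR adjusted p of 0.0681. Without WT library 3 the difference was -0.10 ± 0.04 and passed (adjusted p = 0.0406). WT was 1.40-fold below normal (-0.49 ± 0.04, adjusted p = 5.61e-09) and KO 1.49-fold below (-0.57 ± 0.04, adjusted p = 2.63e-11).

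Suz12 was at 122, 117 and 116 CPM in KO, 127, 125 and 109 CPM in WT and 192.5, 208 and 197 CPM in normal liver cells. The KO and WT libraries overlapped (log2 fold change -0.03, 95% interval -0.12 to 0.07, edgeR adjusted p = 0.662), and normal stood above both, 1.65-fold over WT (adjusted p = 8.37e-10) and 1.68-fold over KO (adjusted p = 4.81e-13). Without WT library 3 the Suz12 difference was -0.09 ± 0.04 (adjusted p = 0.0452), and without WT library 1 or 2 it turned to 0.01 or 0.004. Eed went the other way. Its level of 99.8, 96.1 and 95.2 CPM in KO and 97.1, 101.5 and 101.2 CPM in WT exceeded the 80.9, 79.5 and 76.7 CPM of normal liver cells, by 1.23-fold for KO (adjusted p = 8.34e-07) and 1.27-fold for WT (adjusted p = 7.14e-07). KO and WT overlapped, with a difference of -0.05 (95% interval -0.12 to 0.03, adjusted p = 0.300). Per kb of exon, Eed was level with Suz12 in early HCC cells (1.06 ± 0.001 in KO and 1.08 ± 0.11 in WT) and at 0.513 ± 0.026 of it in normal liver cells.

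In all, 5 of the 8 members tested between KO and WT passed the threshold of adjusted p under 0.05 (1 higher and 4 lower in KO), where 64.5% of all genes tested did (32.3% higher and 32.2% lower). Against normal liver cells, 9 of 10 members passed in WT (5 higher and 4 lower) and 10 of 10 in KO (5 higher and 5 lower). Of all genes tested, 87.2% passed in WT (43.9% higher and 43.3% lower) and 87.7% in KO (44.5% higher and 43.2% lower). These shares are near or not far above those of all genes, so the count says nothing particular about these 10. Of the 8 members tested between KO and WT, 0 passed with a change of at least 2-fold, against 7.66% of all genes tested. The median log2 fold change of the tested members was -0.30 between KO and WT, 0.21 between WT and normal and -0.07 between KO and normal, against medians of 0.00, 0.01 and 0.02 over all genes tested. The 3 comparisons share libraries pairwise, so their values stand side by side and are not independent.

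**Figure D2:**
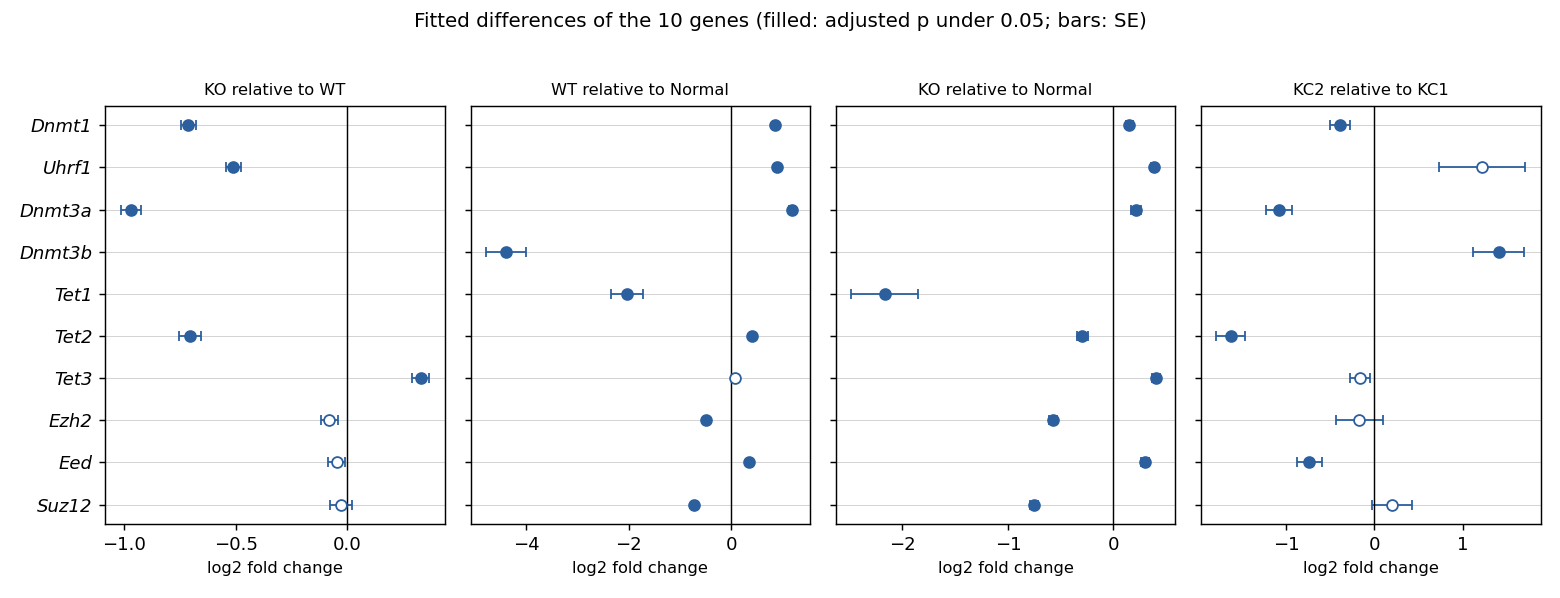
Fitted log2 fold change of each gene with its SE in the 4 comparisons, with a separate horizontal scale in each panel. Filled points passed an adjusted p under 0.05, open points did not, and genes under the filter or at 0 counts in a group have no point. Dnmt1, Uhrf1, Dnmt3a and Tet2 lie left of 0 for KO relative to WT and right of it for WT relative to normal, and Ezh2, Eed and Suz12 are open for KO relative to WT.

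Genes of whole chromosomes were shifted between the liver groups, and some members lie on them. Between KO and WT, the median log2 fold change was -0.25 over the 665 tested genes of chromosome 9, where Dnmt1 lies, and 0.24 over the 930 of chromosome 7, where Eed lies. Relative to its chromosome, Dnmt1 was lower in KO by -0.47 ± 0.03 on the log2 scale (edgeR adjusted p = 7.65e-09), Eed by -0.29 ± 0.04 (adjusted p = 8.27e-06) and Ezh2 by -0.17 ± 0.04 (adjusted p = 6.93e-04), so that Eed and Ezh2 passed the test on this scale but not on the uncorrected one. Between WT and normal, medians of 0.34 on chromosome 9, 0.37 on chromosome 17 and -0.31 on chromosome 6 left 0.53 for Dnmt1, 0.52 for Uhrf1, -0.18 for Ezh2 and 0.38 for Tet3, each with adjusted p under the threshold. For Suz12 the chromosome 11 median of -0.30 left -0.42 (adjusted p = 9.9e-07). Between KO and normal, Uhrf1 no longer passed (0.06 ± 0.03, adjusted p = 0.0835) and Suz12 stood at -0.36. Dnmt3a on chromosome 12 and Tet2 on chromosome 3 kept -1.01 and -0.68 between KO and WT, close to their values without the correction. Over the 4 tested genes of chromosome Y, the median was 5.23 between WT and normal and 4.06 between KO and normal. Between KO and WT it was 0.02. The labels give no sex, and the part of sex in the differences from normal liver cells was not tested.

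Cell division genes were mostly lower in KO than in WT and mostly higher in WT than in normal liver cells, but between KO and normal most were lower whereas Dnmt1 and Uhrf1 were higher. Of 17 S phase and mitosis markers, 0 were higher and 14 lower in KO than in WT (median log2 fold change -0.48), 14 were higher and 3 lower in WT than in normal liver cells (0.49), and 5 were higher and 10 lower in KO than in normal liver cells (-0.14). Of all genes tested, 32.2% were lower in KO than in WT, 43.9% higher in WT than in normal and 43.2% lower in KO than in normal. Their summed level was 3010 to 3050 CPM in KO, 4410 to 4460 CPM in WT and 3140 to 3260 CPM in normal liver cells. Normal liver cells thus held these transcripts above the level of KO cells, and their Alb was at 2.40 CPM. By these values they cannot be taken as resting hepatocytes. Tyms, which makes thymidylate, was 2.10-fold lower in KO than in WT (46.0 ± 2.28 against 96.5 ± 5.22 CPM, SD, n = 3 each), and Mcm3, of the replicative helicase, was 1.90-fold lower. Top2a, the topoisomerase of dividing cells, was 1.73-fold lower, and Ccnb1, a mitotic cyclin, 1.69-fold lower. All 4 had edgeR adjusted p of 6.21e-11 or less. The part of these genes in the levels of Dnmt1 and Uhrf1 was not tested, and in bulk RNA fewer cells of a type and less RNA per cell cannot be told apart.

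Partners of the DNA methylation enzymes passed the threshold in both directions. Of all genes tested, 64.5% passed between KO and WT, 87.2% between WT and normal and 87.7% between KO and normal. Counts of this and the following lists that lie near those shares say nothing particular about a list. Of 12 tested partners and readers, 6 were higher and 4 lower in KO than in WT. Hells, a remodeller needed for methylation of repeats, was 1.47-fold lower in KO (110 ± 5.97 against 162 ± 12.2 CPM), and Zfp57, which keeps methylation at imprinted loci, was 1.72-fold lower (6.31 ± 0.22 against 10.8 ± 0.96 CPM). Trim28, the corepressor that ZFP57 recruits, was 1.31-fold higher (285 ± 3.61 against 218 ± 12.7 CPM; SD, n = 3 for each value, and edgeR adjusted p of 4.08e-06 or less for all 3). Against normal liver cells, 4 rose and 8 fell in WT. Among those lower were the methyl-CpG binding genes Mbd1 (30.9 ± 2.95 against 123 ± 5.57 CPM, 3.98-fold) and Mbd2 (40.9 ± 1.0 against 127 ± 3.01 CPM, 3.10-fold), and Zfp57 was 5.03-fold lower (all adjusted p of 4.49e-15 or less). Dnmt3l, a catalytically inactive cofactor of the de novo enzymes in germ cells, was outside the rule for named genes and was singled out after its values were seen. It had 132.1 counts over the KO libraries, 95 over the WT libraries and 0 over the normal ones, at least 45.8-fold and 32.8-fold above normal, while Dnmt3b was lower in the same libraries.

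Of 10 partners of demethylation and repair, 4 were higher and 2 lower in KO than in WT. Tdg, the glycosylase that excises oxidised methylcytosine, was 1.46-fold higher in KO (145 ± 2.94 against 99.2 ± 2.26 CPM, edgeR adjusted p = 2.56e-09), in the same direction as Tet3, and Apex1, an endonuclease of base excision repair, was 1.5-fold lower (adjusted p = 1.15e-08). Gadd45a, a stress-induced gene linked to demethylation, was 1.81-fold higher (adjusted p = 3.43e-11). In WT against normal liver cells 1 rose and 7 fell, with Gadd45a 2.48-fold lower and Smug1, a uracil glycosylase, 2.99-fold lower (adjusted p of 5.57e-13 or less). Of 3 tested methyl donor genes, 1 was higher in KO than in WT and all 3 were lower in WT than in normal liver cells. Mat2a, which makes S-adenosylmethionine, was 1.22-fold higher in KO than in WT (504 against 412 CPM on average, adjusted p = 2.56e-06). Ahcy was at 3.72 ± 0.30 CPM in WT and 76.6 ± 4.06 CPM in normal liver cells, but Gm4737, whose sequence is close to that of Ahcy, was at 221 ± 5.58 and 123 ± 5.92 CPM, so the split of reads between them is uncertain. Gm4737 was chosen after its values were seen.

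Among the PRC2 accessory genes, Phf19 and Jarid2 had the widest differences from normal liver cells, and others such as Aebp2, Mtf2 and Rbbp4 were 1.33-fold to 1.37-fold higher in WT than in normal. Phf19, which recruits PRC2 to CpG islands, was at 55.0 ± 2.0 CPM in KO, 133 ± 4.58 CPM in WT and 3.92 ± 0.34 CPM in normal liver cells (SD, n = 3 each). That was 2.43-fold lower in KO than in WT (log2 fold change -1.28 ± 0.04, edgeR adjusted p = 9.92e-13) and 34.1-fold higher in WT than in normal (5.09 ± 0.07, adjusted p = 1.26e-19). Jarid2, a subunit of the alternative PRC2 form, was 1.48-fold higher in KO than in WT (239 ± 2.75 against 161 ± 1.38 CPM, adjusted p = 4.96e-10) and 10.5-fold higher in WT than in normal (15.4 ± 0.92 CPM, adjusted p = 5.52e-19). Phf1, another paralog of Phf19, and the histone binder Rbbp4 were 1.52-fold and 1.45-fold higher in KO than in WT (adjusted p = 1.24e-06 and 1.08e-09). Of the 10 tested partners, 5 were higher and 3 lower in KO than in WT, where 64.5% of all genes tested passed. In WT against normal, 8 were higher and 2 lower, where 87.2% passed. Ezh1, the paralog of Ezh2 found in resting cells, was 1.14-fold higher in KO than in WT (33.1 ± 0.67 against 28.9 ± 1.80 CPM, adjusted p = 0.0114).

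Of 21 PRC1 genes, 7 were higher and 5 lower in KO than in WT, 10 higher and 9 lower in WT than in normal, and 11 higher and 9 lower in KO than in normal. Rnf2, the main ubiquitin ligase of PRC1, was 2.09-fold lower in KO (65.7 ± 2.93 against 137 ± 6.77 CPM, edgeR adjusted p = 1.65e-11). Cbx7, a chromodomain reader of methylated H3, was 15.5-fold higher in WT than in normal (18.4 ± 2.36 against 1.19 ± 0.21 CPM, adjusted p = 1.8e-13). Phc1 and Scmh1, both subunits of canonical PRC1, were 3.38-fold and 3.61-fold lower (adjusted p = 1.96e-13 and 2.58e-09). Among 5 tested genes of H3K27 demethylation and H2A deubiquitination, some of them cofactors, 1 was higher and 1 lower in KO than in WT. In WT against normal, 4 were higher and 1 lower. Bap1, the H2A deubiquitinase, was 2.23-fold higher in WT than in normal, and Kdm6b, an H3K27 demethylase, was 1.21-fold higher in KO than in WT (adjusted p = 1.3e-13 and 2.53e-04).

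**Figure D3:**
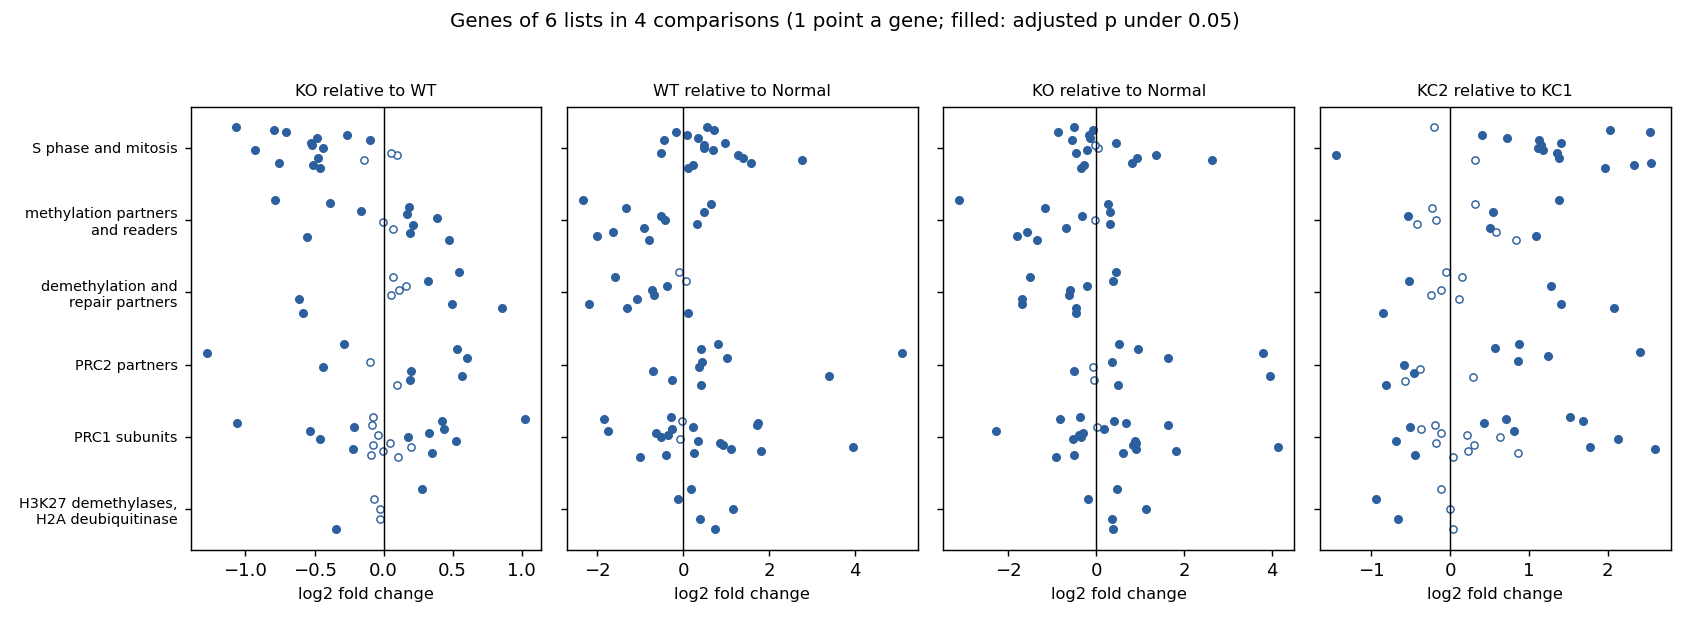
Log2 fold change of each tested gene of 6 lists in the 4 comparisons, with a separate horizontal scale in each panel. Each point is 1 gene, filled where the adjusted p was under 0.05, and genes with 3 counts or fewer in a group are not drawn. S phase and mitosis genes lie mostly left of 0 for KO relative to WT (0 higher and 14 lower) and mostly right of it for KC2 relative to KC1 (14 higher and 1 lower), and Phf19 is the point farthest right for WT relative to normal at 5.09.

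In Kupffer cells Ezh2, Suz12, Dnmt1 and Uhrf1 were lower than in any liver cell group, and Dnmt3a was highest of the 5 groups in KC1 while its KC2 mean lay below that of WT early HCC cells. The relations between these genes are given as ratios per kb of exon within a library, which do not depend on scaling between tables. Dnmt1 stood at 14.0 ± 0.22 (KO), 11.7 ± 0.25 (WT) and 14.7 ± 0.70 (normal) times Dnmt3a in liver cells. In Kupffer cells it stood at 0.838 ± 0.110 (KC1) and 1.35 ± 0.22 (KC2) times, above Dnmt3a per kb in every KC2 library. That order rests on exon lengths of 7.377 kb for Dnmt1 and 16.642 kb for Dnmt3a, which join all annotated isoforms. Without division by length, Dnmt1 was below Dnmt3a in KC2, at 34.5 against 58.4 CPM on average. Ezh2 stood at 3.25 to 4.64 times Ezh1 on average in the 3 liver groups, but at 0.0786 ± 0.0097 in KC1 and 0.0587 ± 0.0149 in KC2 (SD, n = 4 each), so that Ezh1 was the more abundant transcript in all 8 Kupffer cell libraries. Eed exceeded Suz12 by 6.49 ± 0.78 times in KC1 and 3.38 ± 0.68 times in KC2. Without KC2 library 1 these KC2 ratios were 1.25 ± 0.11, 0.0585 ± 0.0182 and 3.49 ± 0.80 (SD, n = 3). No ratio was tested between liver and Kupffer cells.

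**Figure D4:**
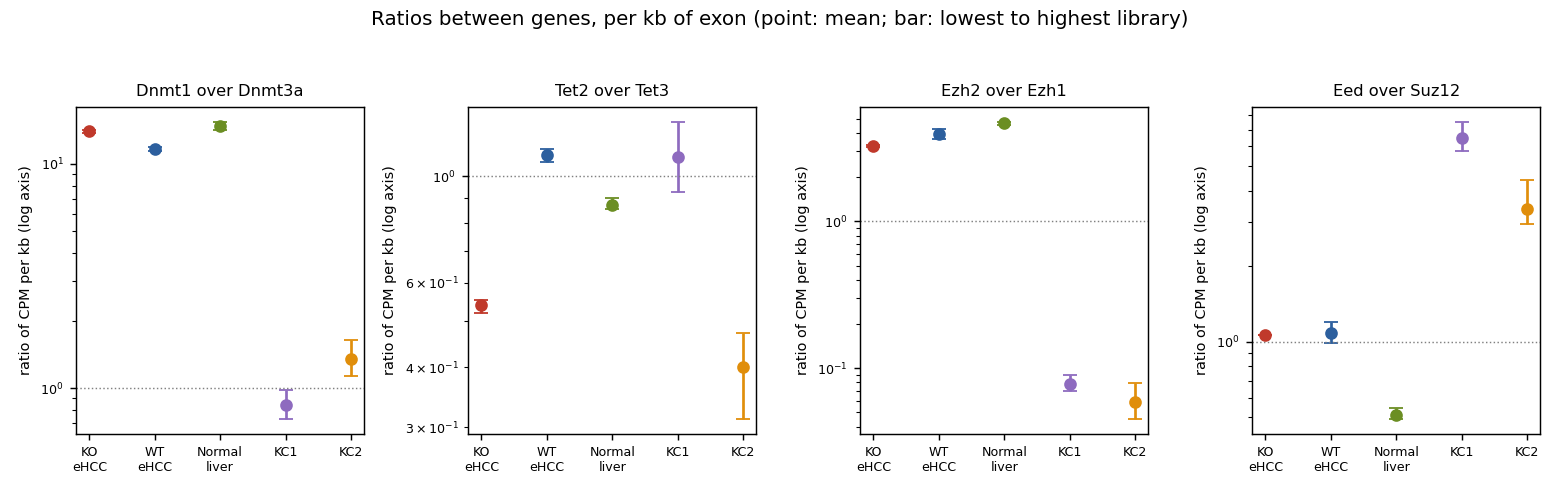
Ratio of CPM per kb of exon between pairs of genes in the 5 groups (log axes). Points are means over 3 or 4 libraries and bars run from the lowest to the highest library. Dnmt1 over Dnmt3a and Ezh2 over Ezh1 fall from above 10 and above 3 in liver cells to 1.64 or less and 0.0906 or less in every Kupffer cell library.

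Library 1 of KC2 stood apart from the other 3, with a chi-square per degree of freedom of 131 to 168 against them and 23.2 to 38.0 among them, so the values of the members, their ratios and the list counts below are also given without it. By summed markers, the KC2 libraries also held less macrophage RNA and more RNA of most other lists. Of the macrophage list, only Lyz2 (6030 against 5070 CPM) and Vsig4 (462 against 369 CPM) had higher means in KC2 than in KC1. Of the hepatocyte list, only Fgb (7.77 against 32.2 CPM) and Tat (6.78 against 9.54 CPM) had lower means in KC2. The summed level of 10 macrophage markers was 28500 to 38700 CPM in KC1, 15800 to 19500 CPM in KC2 libraries 2 to 4 and 3410 CPM in KC2 library 1. That of 10 sinusoidal endothelial markers was 369 to 497 CPM in KC1 and 8720 to 13000 CPM in KC2. Lymphocyte markers (7 with a row) summed to 4.89 to 7.60 CPM in KC1 and 125 to 652 CPM in KC2, neutrophil markers to 37.7 to 170 and 446 to 3700 CPM, and cholangiocyte markers to 7.25 to 16.5 and 162 to 799 CPM. Hepatocyte markers (9 with a row) summed to 68.0 to 134 CPM in KC1 and 162 to 237 CPM in KC2, and stellate cell markers to 12.4 to 32.0 CPM over both groups, which overlapped. Among these lists, the only markers at 0 in a whole Kupffer cell group were Ncr1, Epcam and Cldn4 in KC1. The part of these cells in the differences below was not tested.

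**Figure D5:**
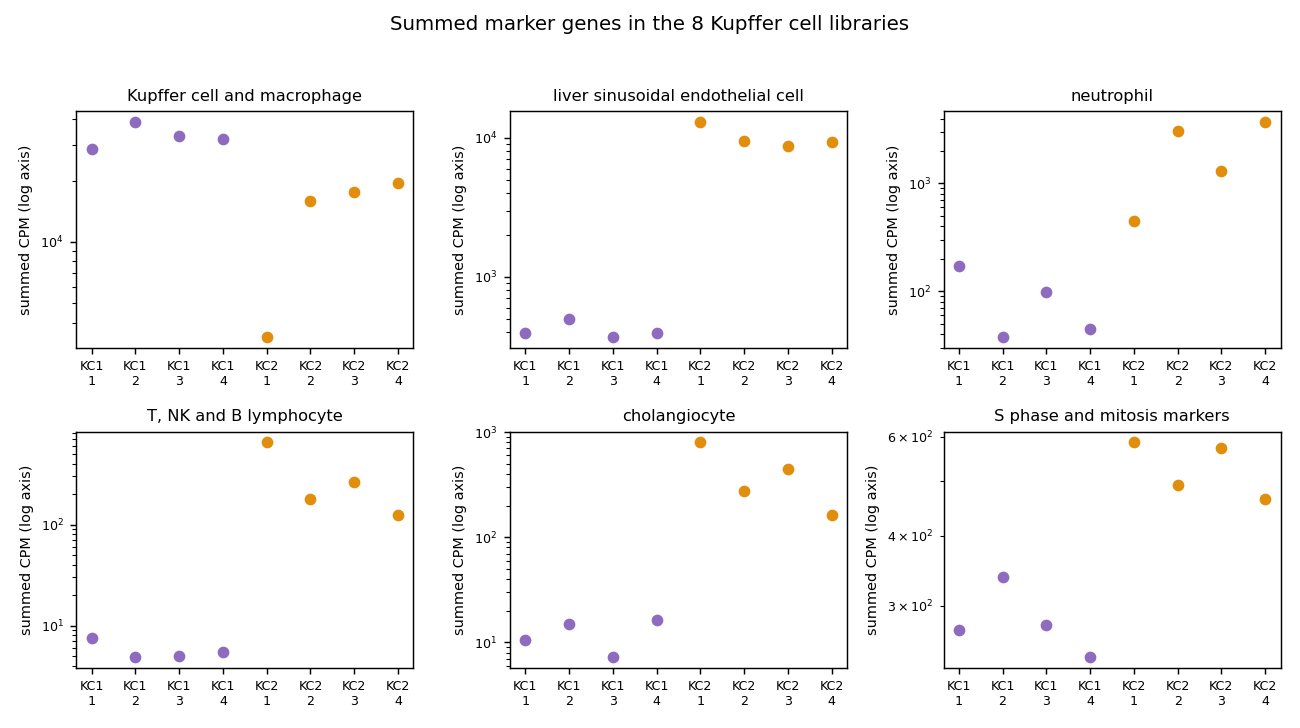
Summed CPM of marker genes (log axes) in each of the 4 KC1 and 4 KC2 libraries, numbered by replicate. The macrophage sum is lower in every KC2 library than in any KC1 library and lowest in KC2 library 1 at 3410. The sums of the other 5 lists are higher in every KC2 library.

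Between KC2 and KC1, Dnmt3a, Tet2, Eed and Dnmt1 were lower and Dnmt3b was higher. Tet2, whose loss drives clonal growth of blood cells and inflammatory macrophage responses in mice, was at 76.9, 53.2, 60.1 and 68.3 CPM in KC1 and at 25.1, 18.6, 22.5 and 17.7 CPM in KC2. The groups were far apart: KC2 was 3.08-fold lower (log2 fold change -1.62 ± 0.16, edgeR adjusted p = 1.26e-05), and without KC2 library 1 the value was -1.72 ± 0.16 (adjusted p = 3.01e-06). Tet3, in contrast, overlapped between 51.8 to 66.2 CPM in KC1 and 48.5 to 56.1 CPM in KC2 (-0.16, 95% interval -0.39 to 0.06, adjusted p = 0.248, and -0.17 without KC2 library 1, interval -0.42 to 0.09, adjusted p = 0.284). Tet2 per kb stood at 1.10 ± 0.16 times Tet3 in KC1 and 0.400 ± 0.077 times in KC2 (SD, n = 4 each), and at 0.376 ± 0.075 in KC2 libraries 2 to 4.

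Dnmt3a, mutated with TET2 in human clonal haematopoiesis, was at 104, 139.5, 108 and 141 CPM in KC1 and at 48.9, 57.7, 63.4 and 63.5 CPM in KC2. It was 2.11-fold lower in KC2 with no overlap (log2 fold change -1.08 ± 0.15, edgeR adjusted p = 1.12e-04, and -1.0 ± 0.15 without KC2 library 1, adjusted p = 1.13e-04). Dnmt3b moved the opposite way, from 3.45, 2.67, 2.21 and 2.01 CPM in KC1 to 6.57, 8.99, 5.33 and 6.63 CPM in KC2. Every KC2 library was above every KC1 library, 2.65-fold on the fit (1.41 ± 0.29, adjusted p = 0.00176, and 1.43 ± 0.32 without KC2 library 1, adjusted p = 0.0025). Dnmt3a remained the more abundant of the pair per kb, by 15.4 ± 5.01 times in KC1 and 2.71 ± 0.75 times in KC2, or 2.85 ± 0.85 without library 1. Dnmt3l had 62 counts over the KC1 libraries and 0 over the KC2 libraries, at least 25.0-fold lower in KC2 and at least 18-fold lower in libraries 2 to 4 of that group.

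Dnmt1 was at 39.7, 48.4, 47.0 and 45.5 CPM in KC1 and 35.7, 34.6, 35.7 and 31.9 CPM in KC2, 1.31-fold lower in KC2 without overlap (log2 fold change -0.39 ± 0.11, edgeR adjusted p = 0.0124, and -0.41 ± 0.13 without KC2 library 1, adjusted p = 0.0168). Uhrf1 varied more within each group than the other tested members. Its levels were 3.59, 13.2, 5.23 and 2.84 CPM in KC1 and 21.1, 15.6, 14.8 and 6.57 CPM in KC2. KC1 library 2 and KC2 library 4 overlapped, and the difference did not pass (1.22 ± 0.49, adjusted p = 0.0522). Without KC1 library 2 it was 1.89 ± 0.41 (adjusted p = 0.0036), without KC2 library 4 it was 1.46 ± 0.47 (adjusted p = 0.0246), and without KC2 library 1 it was 0.97 ± 0.49 (adjusted p = 0.105). Tet1 had 0, 2, 0 and 0 counts in KC1 and 41, 4, 0 and 23 in KC2, a ratio of 28.2 with a 95% counting interval of 7.50 to 237, and it fell under the filter. KC2 library 1 held 41 of those counts, and without it the ratio was 15.5 (interval 3.90 to 135), from 27 counts over the other 3 libraries against 2 over KC1.

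Of the PRC2 core, Eed alone passed the test in Kupffer cells. It was at 38.5, 35.3, 40.5 and 46.4 CPM in KC1 and 20.4, 26.9, 26.6 and 22.9 CPM in KC2, 1.66-fold lower with no overlap (log2 fold change -0.73 ± 0.14, edgeR adjusted p = 0.00118, and -0.66 ± 0.14 without KC2 library 1, adjusted p = 0.00188). Ezh2 ranged from 3.33 to 4.42 CPM in KC1 and from 3.11 to 3.66 CPM in KC2 (-0.17, 95% interval -0.69 to 0.35, adjusted p = 0.600), and Suz12 from 6.06 to 10.5 and from 7.87 to 11.7 CPM (0.21, 95% interval -0.24 to 0.65, adjusted p = 0.452). At these low levels both intervals are wide. Without KC2 library 1, the Ezh2 difference was -0.21 (interval -0.82 to 0.40, adjusted p = 0.586) and that of Suz12 0.25 (interval -0.24 to 0.73, adjusted p = 0.405). Ezh1 was at 54.4 ± 5.55 CPM in KC1 and 66.7 ± 12.1 CPM in KC2 (0.29, adjusted p = 0.114, and 0.28 without KC2 library 1, adjusted p = 0.158). In all, 1 member was higher and 4 were lower in KC2 among the 9 tested, with and without KC2 library 1, where 59.8% of all genes tested passed with it (31.9% higher and 27.9% lower) and 60.5% without it. The members' share is close to that of all genes.

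S phase and mitosis genes were mostly higher in KC2: 14 were higher and 1 lower with all libraries, and 13 higher and 1 lower without KC2 library 1. For this and the lists below, 31.9% of all genes tested were higher and 27.9% lower with all libraries. Counts near those shares say nothing particular about a list. Top2a was 4.09-fold higher (10.6 ± 3.46 against 2.58 ± 1.03 CPM, SD, n = 4 each, edgeR adjusted p = 4.75e-04) and Mcm6 2.65-fold higher (adjusted p = 2.03e-04), while E2f1, a transcription factor of the cell cycle, was 2.74-fold lower (adjusted p = 4.47e-05). Of 11 PRC2 partners, 5 were higher and 3 lower in KC2, and 4 and 4 without KC2 library 1. Phf1 was 2.37-fold higher, Rbbp7 1.83-fold higher and Mtf2 1.81-fold higher, and Aebp2, which stabilises the core on chromatin, was 1.77-fold lower (adjusted p of 0.00267 or less for all 4). Of 21 PRC1 genes 8 were higher and 3 lower, and 7 and 2 without KC2 library 1. Cbx6 was 6.04-fold higher (40.7 ± 3.95 against 6.73 ± 2.63 CPM, adjusted p = 7.9e-06), and Rybp and Yaf2, paralogs of the variant complexes, were 3.21-fold and 2.87-fold higher (adjusted p = 5.63e-05 and 3.52e-04). Of 5 genes of H3K27 demethylation and H2A deubiquitination, 2 were lower, with Kdm6a, an X-linked H3K27 demethylase, 1.92-fold lower (adjusted p = 0.00334). Of 6 methyl donor genes 1 was higher, Mat2b, and 1 lower, Mat1a (adjusted p = 7.5e-05 and 0.00564). Both counts were the same without KC2 library 1. Of the 13 methylation partners and readers, 5 were higher and 2 lower, with the methyl-CpG reader Zbtb38 2.60-fold higher (adjusted p = 6.89e-06), and the counts were the same without KC2 library 1. Of the demethylation partners 3 were higher and 2 lower, and 4 and 2 without that library, with the glycosylase Mbd4 2.44-fold higher (adjusted p = 0.00103). Across these and the other lists, the rule for named genes takes 28 genes between KC2 and KC1. Without KC2 library 1 all 28 passed in the same direction, and 0 of them had a fold change that moved by over 1.5 times. Cbx6 was then 5.85-fold higher, Top2a 4.14-fold higher and Kdm6a 1.82-fold lower (adjusted p = 4.24e-06, 4.74e-04 and 0.00614).

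Across the 5 groups, levels set over the separate tables ordered the members in different ways. Dnmt1 ran from WT through KO, normal and KC1 down to KC2 with no overlap between neighbours. Uhrf1 had the same order among liver cells, and KC1 and KC2 overlapped at the bottom. Dnmt3a was highest in KC1 (123 ± 19.8 CPM), then WT, KC2, KO and normal, and WT and KC2 overlapped when all 17 libraries were scaled together. Dnmt3b was highest in KC2, with KC1 and normal liver cells overlapping. Ezh2 and Suz12 ran from normal liver cells through early HCC cells, whose groups overlapped for Suz12, to Kupffer cells, whose groups overlapped for both. Eed was highest in early HCC cells, where KO and WT overlapped, and lowest in KC2. For Tet2 and Tet3 the order changed with the scaling: Tet2 was highest in WT (73.2 CPM) within its own table and in KC1 (76.5 CPM) when all libraries were scaled together, and KC2 was lowest on both scales. Tet3 was highest in KO on both scales, and KC1 and KC2 overlapped. Tet1 was highest in normal liver cells and lowest in KC1, and only KO and KC1 did not overlap among neighbours in its order.

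For 4 members, the genes with the most similar pattern were listed by Pearson correlation of log2(CPM + 1), as a description over libraries that fall into 3 or 2 groups. Over the 9 liver cell libraries and 9115 genes, Dnmt1 was most like Aplp2 (r = 0.998), Gramd4 and Ogfr, and Dnmt3a was most like Cdca2 (r = 0.997), Arl4d and Aplp2. Tet2 was most like Slc35e4 (r = 0.992), Endod1 and Ppargc1a, and Ezh2 most like Mettl4 (r = 0.998), Usp9x and Yae1d1. Over the 8 Kupffer cell libraries and 8763 genes, Dnmt1 was most like Frs2 (r = 0.981), Slc7a7 and Ttc37, and Dnmt3a most like Zfp202 (r = 0.990), Vcpip1 and Rreb1. Tet2 was most like the chemokine gene Ccl5 (r = 0.993), Smarca4 and Batf2. Ezh2 had no close neighbour there, its nearest being Cwc22 (r = 0.891).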

How the data were processed

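Per the labels' protocols, RNA was extracted with TRIzol, poly(A) selected and made into stranded libraries by an automated protocol. The authors deposited expected counts per gene in 3 tables. Per the submitters' processing notes, FastQC, HISAT and RSEM were used with build mm10, with tool versions and the annotation not given in the sources used here. RSEM divides reads shared by similar genes, and whether counting used strand is not given. The members, gene lists and marker lists were chosen with earlier results of these data known.

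The WT columns were identical in both tables that hold them. Symbols that a spreadsheet had turned into dates (25 per table) were restored from gene identifiers, 99.7% of which matched RefSeq. Columns without a sample numbered 0. Expected counts were rounded, filtered with filterByExpr, scaled by TMM and tested with edgeR 4.0.16 (quasi-likelihood) in R 4.3.3, using the libraries of the groups compared, with Benjamini-Hochberg adjustment over all genes tested. A gene was called at adjusted p under 0.05. The code was tested on simulated data with 200 changed genes.

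From each of 9 lists, up to 4 called genes per comparison were named by largest fold change among those at 10 CPM or more in a group. A PRC1 gene that this rule names is not reported here. Same-numbered libraries shared deviations from their group means in some pairs and not in others, with r from -0.251 to 0.355. Between KO and normal each same-numbered r (0.054, 0.149 and 0.12) was above the best other r. The numbers are not known to mark pairs and were not taken as pairs. Levels per kb used the union of a gene's exons in the GENCODE annotation of GRCm38. This union joins all isoforms and need not be the length of the expressed transcript, so the order between genes can depend on it. A floor of 3 counts in 1 library was 0.161 to 0.195 CPM. Alternatives were DESeq2 1.42.0 (its size factors or its test), no filter, the replicate block, centring on chromosome medians, a shared dispersion and leaving out each library.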

Additional observations from a re-analysis of the deposited data

Results flagged for a closer look

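Tet1 in KC1 stood out because 1 of the 4 libraries differed from the other 3: library 2 had 0.13 CPM, from 2 counts, and the others had 0. Counts of that size are below the floor of 3 counts. Of 20 sets of 4 Kupffer cell libraries checked, 1 met the criterion for a distant value, and chance alone gives about 1 in 20.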

How the results depend on the processing

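The counts of called members stayed within 1.5 times of those reported under all 49 alternatives run, with 5 to 7 called between KO and WT, 9 to 10 in each early HCC group against normal liver cells and 5 to 7 between KC2 and KC1. Of single-gene values under an alternative, 450 kept their direction and their side of the threshold, 11 newly passed it, 1 no longer passed and 3 changed sign. These values cover only members tested in the reported fits. Between KO and WT, the shared-dispersion fit tested all 10 members and called 6. Between KC2 and KC1, the DESeq2 test called 7 of 10. In each of these, 1 gene under the reported filter passed. The sign changes were all Suz12 between KO and WT, at 0.017 when centred on chromosome medians, 0.010 without WT replicate 1 and 0.004 without WT replicate 2, and its values without 1 library ran from -0.09 to 0.010. The value no longer passing was Uhrf1 between KO and normal (0.06, adjusted p = 0.0835) when centred on chromosome medians. Uhrf1 between KC2 and KC1 passed with the DESeq2 test (adjusted p = 0.0284), when centred on chromosome medians (0.0344), and with the replicate block (log2 fold change 1.36, adjusted p = 0.0182). Tet3 passed there when centred (-0.43, adjusted p = 0.00754). The replicate block called 7962 genes between KO and WT against 7800 without it, 10911 against 11069 between WT and normal, 11109 against 11100 between KO and normal, and 7287 against 7638 between KC2 and KC1. The numbers are not known to mark pairs. DESeq2 called 6646 genes between KO and WT. The causes were not tested. Depth limited Dnmt3b and Tet1, which were under 12 counts per library in early HCC cells.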

Other observations

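Of 12 germline genes that DNA methylation is known to silence in somatic tissues, 9 had a row and 5 were tested between WT early HCC and normal liver cells: 4 were higher and 1, Taf7l, was lower (2.7 counts over the WT libraries against 40 over the normal ones). The other 7 could not be compared. The 4 higher genes were near 0 in normal liver cells and entered the test through the group where they are high, and the tables list only genes detected in early HCC cells, so this count shows no direction for the list. Rhox5, a homeobox gene of the placenta and testis, was at 292 ± 2.59 CPM in WT and 0.843 ± 0.114 CPM in normal liver cells (346-fold, edgeR adjusted p = 1.97e-21), and at 217 ± 2.23 CPM in KO (SD, n = 3 each). Tex19.1, which restrains retrotransposons in germ cells, was at 75.0 ± 3.30 CPM in WT, 82.8 ± 1.98 CPM in KO and 0.165 ± 0.001 CPM in normal liver cells. Tdrkh, of the piRNA pathway, was 35.5-fold higher in WT than in normal (adjusted p = 3.32e-14). In Kupffer cells it was 6.30-fold lower in KC2 than in KC1 (2.62 ± 1.31 against 16.5 ± 0.77 CPM, n = 4 each, adjusted p = 1.67e-04), and 5.06-fold lower without KC2 library 1 (adjusted p = 2.3e-06). Mael, another piRNA gene, singled out after its values were seen, had 393 counts over the WT libraries, 329 over KO and 0 over normal, at least 136-fold and 114-fold above normal.

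Developmental regulators that carry Polycomb marks in many cell types moved in both directions. Of 11 tested between WT and normal liver cells, 7 were higher and 4 lower, where 87.2% of all genes tested passed. Pax9, a factor of the foregut, was at 38.0 ± 0.77 CPM in WT and 0.144 ± 0.023 CPM in normal liver cells (283-fold, edgeR adjusted p = 7.07e-18). Tbx3, a factor of liver bud growth, had 1309 counts over the WT libraries and 1 over the normal ones, a ratio of 1360 with a 95% counting interval of 243 to 53600. Gata4 and Gata6, endoderm factors, went the other way, with 3 and 2 counts over the WT libraries against 1026 and 671 over the normal ones, ratios of 330 (interval 113 to 1600) and 324 (89.3 to 2680). Gata6 had 0 counts in KO, at least 215-fold lower than in normal. Between KO and WT, 1 of 8 was higher, Foxc2 (13.2 ± 0.66 against 6.09 ± 0.92 CPM, 2.16-fold, adjusted p = 1.93e-07), and 4 were lower, among them Cdkn2a by 1.10-fold (adjusted p = 0.0451). Between KC2 and KC1, Gata4 was 38.4-fold and Sox17 98.9-fold higher, and Cdkn2b, a cell cycle inhibitor, was 3.38-fold lower (adjusted p of 4.69e-04 or less for all 3). Without KC2 library 1 the folds were 29.9, 77.9 and 3.19 (adjusted p of 6.58e-04 or less). Gata4 and Sox17 are also genes of endothelium, whose summed markers were 369 to 497 CPM in KC1 and 8720 to 13000 CPM in KC2. Their part in these differences was not tested.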
